A study of Homo sapiens with 6 samples.

Results

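The 45 genes described here encode the enzymes and regulators through which cells make cholesterol and fatty acids under the control of the sterol regulatory element-binding proteins (SREBPs). They were chosen by gene symbol out of 58174 genes in the deposited tables, and every symbol matched a gene ID. The rule held no measured value, but earlier results of these data were known when the members were chosen. The sterol arm holds 21 of them (7 enzymes from acetoacetyl-CoA to farnesyl diphosphate, 11 from squalene to cholesterol, and SREBF2, INSIG1 and STARD4), and the fatty acid arm holds the other 24.

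SREBPs are made as precursors anchored in the membrane of the endoplasmic reticulum. When sterols are low, the escort protein SCAP carries them to the Golgi, where proteases release a fragment that enters the nucleus and binds sterol regulatory elements in promoters, usually next to sites for the general factors NF-Y and SP1. SREBF2 encodes the form best known for driving sterol genes, SREBF1 encodes the forms best known for driving fatty acid genes, and INSIG1 retains the SCAP complex in the endoplasmic reticulum. USF1 and USF2 bind E-boxes in lipogenic promoters. JMJD1C, a member of the JmjC family of histone demethylases, has been described as a coactivator of lipogenesis, which is why the arms were compared.

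LN-229 is an established human glioblastoma line that grows as an adherent culture. Nuclear-enriched RNA, depleted of ribosomal RNA, was sequenced in 3 libraries labelled control-NC and 3 labelled sh-JMJD1C, where sh usually stands for a short hairpin RNA that targets the named transcript. All 6 libraries carry the same cell line label, and the labels give no second allele or agent, no time after treatment, no number of hairpins and no word on whether replicates were separate cultures. P-values therefore measure only the spread between these libraries, which may be technical.

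JMJD1C itself was lower in the sh-JMJD1C libraries. In scaled RPM (reads scaled to a common total, then rescaled between libraries), it stood at 168, 93.1 and 171 in controls 1 to 3 and at 43.1, 10.97 and 28.1 in sh-JMJD1C libraries 1 to 3. The groups did not overlap, and the exact permutation test gave p = 0.1, two-sided, the smallest that 3 libraries against 3 allow. In the planned test, limma on log2(scaled FPKM + 0.5) with Benjamini-Hochberg adjustment over 17869 genes (the FPKM fit), the log2 fold change was -1.82 ± 0.41 (SE), with adjusted p = 0.117. In limma-voom on the whole reads recovered from the FPKM, over 11877 genes (the read fit), it was -2.49 ± 0.51, with adjusted p = 0.0253. In bulk RNA, less RNA per nucleus and fewer nuclei that hold it cannot be told apart, here and for every gene below.

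The libraries were shallow and uneven, between 544442 reads in control 1 and 2960454 in control 3. The 7SL RNAs took 1.18% of reads in sh-JMJD1C 1 but 15.7% and 18.5% in sh-JMJD1C 2 and 3, against 0.378% to 1.77% in controls, and MALAT1, a nuclear RNA, took 1.25% to 2.40% in controls and 0.091% to 0.292% in sh-JMJD1C libraries. One non-coding gene, ENSG00000281181, held 25.03% of reads in control 1. Of the 7 glioma and mesenchymal markers, only VIM and CD44 were well detected. NES, GFAP and SOX2 had 35, 15 and 2 reads over the 6 libraries, and OLIG2 and S100B were at 0 in every library. The list, nearly all of it VIM and CD44, summed to 899 to 1099 scaled RPM in controls and 880 to 1386 in sh-JMJD1C libraries. Of the 9 markers of other cell types, PECAM1 was at 0 in every library, and the list summed to 293 to 531 scaled RPM in controls and 1544 to 4781 in sh-JMJD1C libraries. Most of that sum in every library was KRT8, a keratin that rose in the read fit (log2 fold change 2.94, adjusted p = 0.0116). The other 8 summed to 30.3 to 46.9 scaled RPM in controls and 11.2 to 22.1 in sh-JMJD1C libraries, with the oligodendrocyte marker MBP apart and lower, and EPCAM, the other epithelial marker, at 0 in every sh-JMJD1C library and in control 1. The part of these differences in the results below was not tested.

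Promoter sequence was set beside the data because the members are grouped by the factors that act on their promoters. RefSeq (GRCh38.p14) gave an entry for 40 members, and the 250 bases before each start were searched on both strands. The 4 sequences below, given 5′ to 3′ on the gene's strand, are those of SREBF2, the measured sterol regulator with a sterol regulatory element, of INSIG1, a lower member with an E-box, and of MSMO1 and NSDHL, consecutive sterol enzymes with opposite fold changes. Capitals mark the sterol regulatory element TCACNCCAC, the E-box CACGTG and the CCAAT box, on either strand.
SREBF2: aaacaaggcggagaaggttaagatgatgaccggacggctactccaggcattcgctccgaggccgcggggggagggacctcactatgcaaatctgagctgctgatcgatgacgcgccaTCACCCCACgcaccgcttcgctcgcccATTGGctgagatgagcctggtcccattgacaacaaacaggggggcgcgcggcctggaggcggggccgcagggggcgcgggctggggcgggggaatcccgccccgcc
INSIG1: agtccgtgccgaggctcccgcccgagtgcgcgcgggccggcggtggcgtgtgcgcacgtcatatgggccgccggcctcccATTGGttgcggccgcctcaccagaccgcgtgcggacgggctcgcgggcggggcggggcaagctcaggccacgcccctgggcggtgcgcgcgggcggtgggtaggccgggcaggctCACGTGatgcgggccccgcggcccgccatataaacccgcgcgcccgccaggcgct
MSMO1: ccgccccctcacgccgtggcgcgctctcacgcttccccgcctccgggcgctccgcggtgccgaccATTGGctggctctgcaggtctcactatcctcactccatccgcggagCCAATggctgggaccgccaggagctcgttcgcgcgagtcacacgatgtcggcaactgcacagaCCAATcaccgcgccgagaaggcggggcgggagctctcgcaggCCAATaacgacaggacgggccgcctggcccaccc
NSDHL: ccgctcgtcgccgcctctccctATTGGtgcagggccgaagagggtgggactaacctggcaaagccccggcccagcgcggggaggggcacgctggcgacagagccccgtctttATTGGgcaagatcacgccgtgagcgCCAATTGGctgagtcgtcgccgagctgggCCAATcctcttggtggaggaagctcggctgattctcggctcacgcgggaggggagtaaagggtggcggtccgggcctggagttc

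The windows lie at chr22:41832855-41833104 (plus strand) for SREBF2, chr7:155297628-155297877 (plus strand) for INSIG1, chr4:165327419-165327668 (plus strand) for MSMO1 and chrX:152830813-152831062 (plus strand) for NSDHL. A sterol regulatory element stood in 2 of 40 members (5.0%; SREBF2 and ACSL1), against 1.25% of the 8775 measured genes with an entry. In SREBF2 its first base lay 133 bases before the start. The CCAAT box, the letters bound by NF-Y, was in 28 of 40 members (70.0%) against 42.2% of measured genes, and it was in 16 of 18 sterol members and 12 of 22 fatty acid members. MSMO1 held 4 copies and NSDHL 5, of which a pair overlap in the palindrome CCAATTGG. The E-box was in 3 members (7.5%; INSIG1, SC5D and ELOVL5) against 11.6%, and the GC box GGGCGG, a site for SP1, in 38 (95.0%) against 76.0%. A CCAAT box was present in 6 of 9 members whose sh-JMJD1C libraries all lay below the controls and in 4 of 6 whose libraries all lay above. These are matches of letters in a fixed window, not sites, and with no entry for SQLE, FDFT1, ACAT2, FASN and DGAT1 those members were not searched.

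No member was called in the FPKM fit, where 0.196% of all genes were called (35 of 17869). Of the 42 members tested there, 19 (45.2%) had an unadjusted p below 0.05, 7 higher and 12 lower in sh-JMJD1C, against 20.3% of all genes. Many of all those genes are not protein-coding, as the 42 members are. Fitted alone, 3247 of 10062 protein-coding genes had an unadjusted p below 0.05. The 19 of 42 members were counted in the fit of all genes, so these counts come from different fits. TM7SF2, ELOVL6 and ACSL1 fell under the minimum level of the FPKM fit. In the read fit, 3 of 44 members were called, all of them higher: EBP, ACOT7 and AGPAT2. Over all genes, 5.52% were called in either direction and 3.71% higher, and an unadjusted p below 0.05 was found in 22 of the 44 members beside 30.8% of genes. When only protein-coding genes entered the FPKM fit, 9.1% of genes and 7 of 42 members were called: EBP, NSDHL, ACOT7 and AGPAT2 higher, and INSIG1, ACSS2 and ACSL3 lower. The description that follows gives values by library and, unless the FPKM fit is named, fold changes of the read fit.

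The scaling between libraries changed which members were called. With library totals in place of median-ratio factors, the read fit called 10.1% of genes, 2.62% higher and 7.44% lower, and its median log2 fold change over all genes moved from -0.08 to -0.52. Under that scaling 2 members were called higher (EBP and ACOT7) and 10 lower (SQLE, MSMO1, IDI1, INSIG1, STARD4, SCD, ACSL3, ACSL4, ACSS2 and LPIN1). The sterol arm's median was then -0.53, close to that of all genes, and the fatty acid arm's was -0.74. All fold changes below use median-ratio scaling, which sets the middle of the measured genes near 0.

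**Figure D1:**
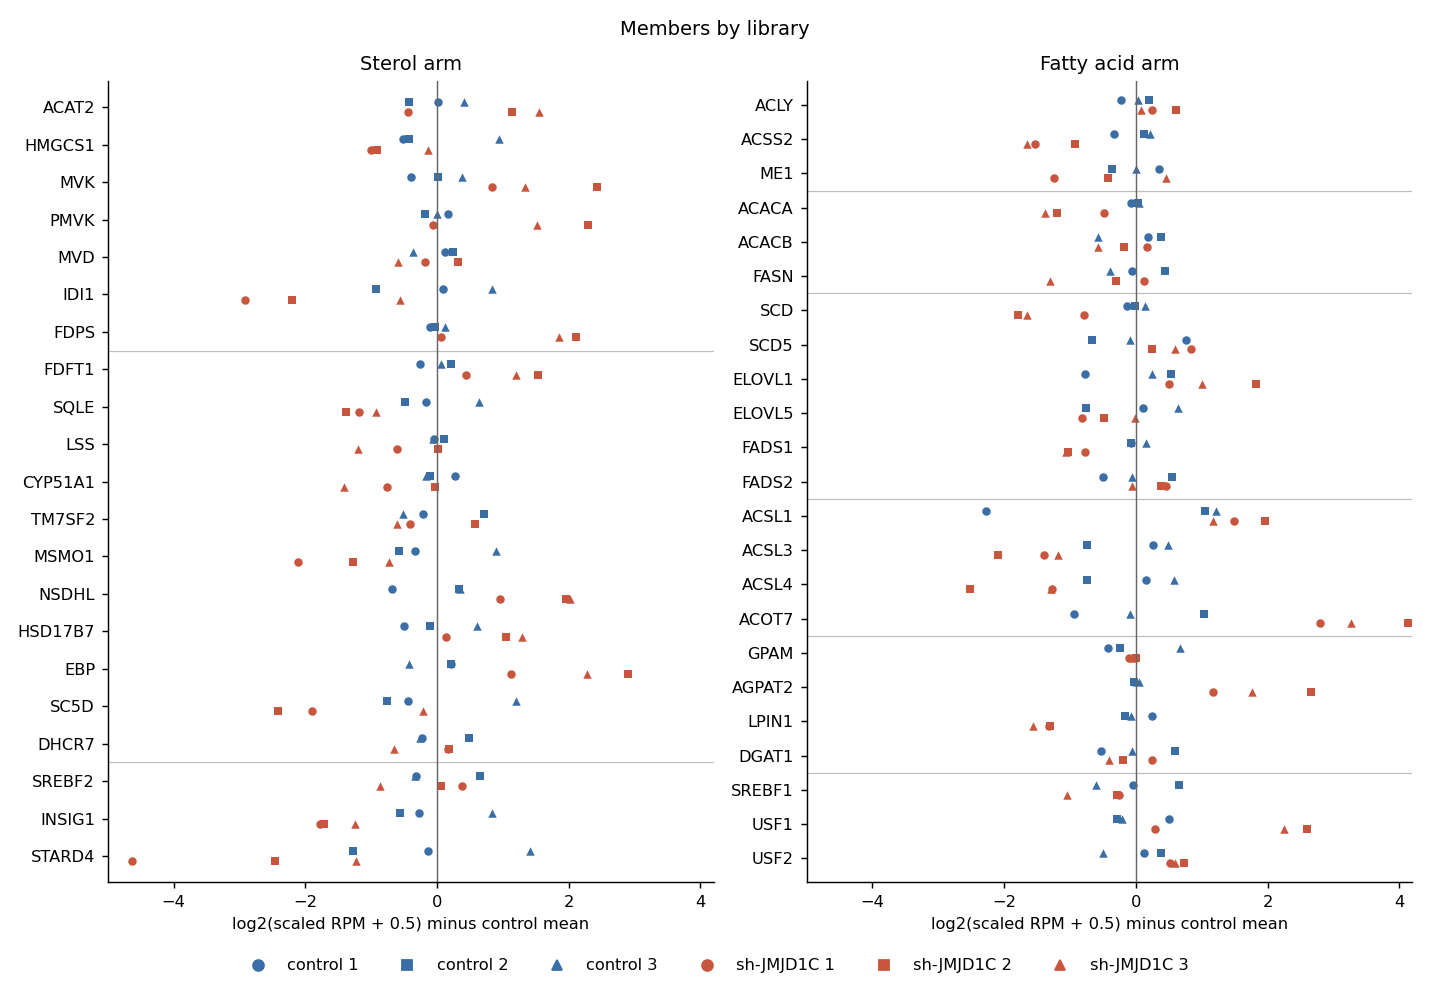
Level of each member in each library, as log2(scaled RPM + 0.5) minus the mean of the 3 control libraries, with the sterol arm left and the fatty acid arm right; blue points are control libraries, red points sh-JMJD1C libraries, the marker shape gives the library number, and grey lines part the role groups. ACOT7, AGPAT2 and EBP lie right of every control library and INSIG1, SCD and LPIN1 lie left of every control library, while ELOVL6, with 8 reads in all, is not drawn.

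The groups did not overlap in 17 of 44 members (38.6%), beside 34.5% of all measured genes. In 10 members all sh-JMJD1C libraries lay below all controls (17.2% of genes did), and in 7 all lay above (17.3% of genes). In the sterol arm 7 of 21 members stood apart (3 lower, 4 higher), and in the fatty acid arm 10 of 23 (7 lower, 3 higher). Neither arm moved as a block.

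Of the 7 genes of the mevalonate steps, 4 had a higher and 3 a lower level in sh-JMJD1C. MVK, mevalonate kinase, stood at 14.9, 19.9 and 25.9 scaled RPM in controls 1 to 3 and at 35.8, 108 and 50.6 in sh-JMJD1C libraries 1 to 3. Its groups did not overlap, and its read-fit log2 fold change was 1.42 ± 0.48 (SE; adjusted p = 0.0846). MVK shares its locus with MMAB on the other strand, which had 883 reads to its own 455, and whether the counting used strand is not given in the sources used here. PMVK (1.28), the next kinase, and FDPS (1.35), which makes farnesyl diphosphate, also had positive log2 fold changes, but their sh-JMJD1C 1 library lay among the controls. ACAT2, the thiolase that joins acetyl groups, had 0.75, with sh-JMJD1C 1 at 57.3 just under the lowest control at 57.7. HMGCS1, which makes HMG-CoA, stood at 98.1, 105 and 271 in controls and at 69.8, 74.7 and 128 in sh-JMJD1C libraries, so the groups overlapped (log2 fold change -0.71 ± 0.46, adjusted p = 0.305). MVD, the decarboxylase, was near level at -0.13, and IDI1, the isomerase that follows it, had -1.95 ± 0.66 (adjusted p = 0.0814), with control 2 at 24.0 and sh-JMJD1C 3 at 30.9 overlapping. None of the 7 mevalonate genes passed the adjusted threshold in either fit.

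From squalene to cholesterol, single steps went opposite ways. EBP, the sterol isomerase (chromosome X, 48521158 to 48528716, hg38), stood at 141, 142 and 90.7 scaled RPM in controls 1 to 3 and at 267, 911 and 592 in sh-JMJD1C libraries 1 to 3. Every sh-JMJD1C library exceeded every control, the mean went from 124 ± 29.1 to 590 ± 322 (SD, n = 3), and EBP rose in the read fit by 2.12 ± 0.47 on the log2 scale (adjusted p = 0.031). NSDHL, a dehydrogenase of sterol demethylation, stood at 14.9, 30.9 and 31.0 in controls and at 47.7, 96.0 and 99.7 in sh-JMJD1C libraries. FDFT1, which makes squalene, stood at 213, 296 and 266 in controls and at 347, 747 and 592 in sh-JMJD1C libraries. Both stood apart without reaching the threshold in the read fit (NSDHL 1.48, adjusted p = 0.0629; FDFT1 1.07, adjusted p = 0.101).

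Other steps of this stretch lay lower. SQLE, squalene epoxidase, stood at 117, 93.9 and 205 in controls 1 to 3 and at 57.3, 50.05 and 68.8 in sh-JMJD1C libraries 1 to 3. MSMO1, the methyl sterol oxidase that acts just before NSDHL, stood at 36.3, 30.5 and 85.5 in controls and at 10.2, 18.5 and 27.4 in sh-JMJD1C libraries. The groups did not overlap in either gene, and the read-fit log2 fold changes were -1.17 ± 0.40 for SQLE (adjusted p = 0.0839) and -1.47 ± 0.54 for MSMO1 (adjusted p = 0.099). SC5D, the sterol desaturase, had -1.73 ± 0.74 with overlapping groups. The remaining members of this stretch lay between -0.66 and 0.63 and overlapped: LSS (-0.60), which closes the sterol rings, CYP51A1 (-0.66), which removes a methyl group, TM7SF2 (-0.16), a reductase, HSD17B7 (0.63), a ketoreductase, and DHCR7 (-0.11), the last reductase of its branch.

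Ratios of reads within a library, which need no scaling between libraries, restate these values for 3 pairs of consecutive enzymes. The pairs were chosen after their values were seen and are therefore given with no test. MSMO1 over NSDHL was 2.43, 0.987 and 2.76 in controls 1 to 3 and 0.214, 0.193 and 0.275 in sh-JMJD1C libraries 1 to 3. SQLE over FDFT1 was 0.55, 0.317 and 0.769 in controls and 0.165, 0.0670 and 0.116 in sh-JMJD1C libraries. IDI1 over FDPS was 0.299, 0.139 and 0.428 in controls and 0.0311, 0.0125 and 0.0486 in sh-JMJD1C libraries. In all 3 pairs every sh-JMJD1C ratio lay below every control ratio. For MSMO1 over NSDHL and for SQLE over FDFT1 this had to follow, since each gene stood apart and its partner did so in the opposite direction. These ratios are thus no further evidence of the split. IDI1 and FDPS each overlapped when taken singly. The longest transcripts of MSMO1 and NSDHL have 2269 and 1929 nucleotides and those of SQLE and FDFT1 have 2961 and 2660, whereas those of IDI1 and FDPS have 3370 and 2017; a ratio of reads compares libraries and not the levels of both genes.

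**Figure D2:**
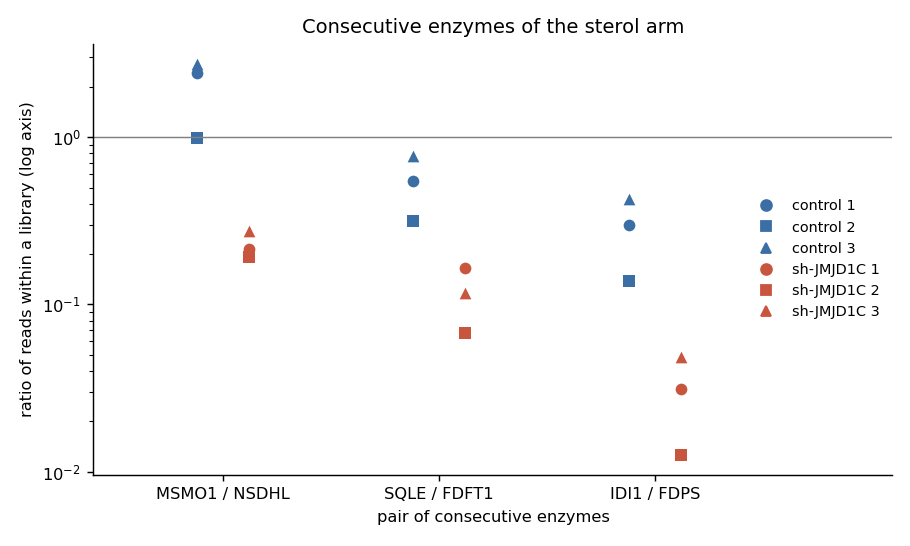
Ratio of reads of an enzyme to those of its partner in the same library, on a log axis, for 3 pairs of sterol enzymes; blue points are control libraries, red points sh-JMJD1C libraries, and the marker shape gives the library number. The MSMO1 to NSDHL ratio lies between 0.987 and 2.76 in controls and between 0.193 and 0.275 in sh-JMJD1C libraries, and the other pairs part in the same direction.

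Regulators and transport of the sterol arm were lower or level. INSIG1 stood at 109, 88.6 and 236 scaled RPM in controls 1 to 3 and at 38.0, 39.8 and 55.5 in sh-JMJD1C libraries 1 to 3. The groups did not overlap; the read-fit log2 fold change was -1.59 ± 0.44 (adjusted p = 0.0541) and the FPKM value -1.54 ± 0.45 (adjusted p = 0.159). STARD4, a carrier of cholesterol between membranes, had the most negative log2 fold change of the members at -3.03 ± 0.98 (adjusted p = 0.0743), but control 2 at 16.3 lay under sh-JMJD1C 3 at 16.9. SREBF2 stood at 162, 316 and 160 in controls and at 262, 211 and 110 in sh-JMJD1C libraries. The SREBF2 groups overlapped throughout, its log2 fold change was -0.16 ± 0.44 (adjusted p = 0.828), and its sign turned to 0.30 when the trend over transcript length, described below, was removed.

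Transcription factors placed with the fatty acid arm did not move together. SREBF1 stood at 175, 285 and 118 in controls 1 to 3 and at 150, 148 and 87.1 in sh-JMJD1C libraries 1 to 3, with overlap and a log2 fold change of -0.54 ± 0.42 (adjusted p = 0.392). USF1 stood at 19.2, 10.98 and 11.5 in controls and at 16.5, 83.6 and 66.0 in sh-JMJD1C libraries, so that sh-JMJD1C 1 lay among the controls (1.86 ± 0.62, adjusted p = 0.0805). USF2 stood at 98.1, 118 and 64.0 in controls and at 130, 151 and 137 in sh-JMJD1C libraries, apart but by a small amount (0.63 ± 0.37, adjusted p = 0.262). The amount of processed SREBP in the nucleus was not measured, and the RNA of SREBF1 or SREBF2 does not give it.

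Of the enzymes that supply acetyl-CoA, ACSS2 stood apart and ACLY did not. ACSS2, which makes acetyl-CoA from acetate (chromosome 20, 34872146 to 34927962), stood at 113, 155 and 164 in controls 1 to 3 and at 48.8, 74.7 and 44.9 in sh-JMJD1C libraries 1 to 3. Every sh-JMJD1C library lay below every control; the read-fit log2 fold change was -1.39 ± 0.38 (adjusted p = 0.0512), and with the length trend removed ACSS2 fell by 1.46 ± 0.35 in log2 units (adjusted p = 0.0469). ACLY, which makes acetyl-CoA from citrate, stood at 499, 671 and 601 in controls and at 697, 897 and 619 in sh-JMJD1C libraries. Its groups overlapped (0.33 ± 0.36, adjusted p = 0.554), and its sign turned under library totals (-0.04). ME1, malic enzyme and a source of NADPH, lay at -0.37 with overlap.

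Of the enzymes that build palmitate, ACACA stood apart and FASN did not. ACACA, the acetyl-CoA carboxylase of the cytosol, stood at 427, 460 and 464 scaled RPM in controls 1 to 3 and at 320, 197 and 173 in sh-JMJD1C libraries 1 to 3 (-1.02 ± 0.37, adjusted p = 0.0986). FASN, fatty acid synthase, stood at 940, 1337 and 746 in controls and at 1066, 796 and 398 in sh-JMJD1C libraries (-0.50 ± 0.45, adjusted p = 0.454). The FASN groups overlapped, and its sign turned to 0.25 with the length trend removed, under which ACACA went to -0.20 ± 0.33 (adjusted p = 0.725). ACACB, the carboxylase at the mitochondrial surface, lay at -0.13. The longest transcripts of these 3 genes have 9961 (ACACA), 8565 (FASN) and 9360 (ACACB) nucleotides, the longest among the members.

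Among desaturases and elongases, SCD and FADS1 lay lower and the others overlapped. SCD, stearoyl-CoA desaturase, stood at 1883, 2053 and 2266 in controls 1 to 3 and at 1192, 598 and 652 in sh-JMJD1C libraries 1 to 3. FADS1, the delta-5 desaturase, stood at 729, 728 and 858 in controls and at 449, 376 and 369 in sh-JMJD1C libraries. Both stood apart, with read-fit log2 fold changes of -1.40 ± 0.40 (SCD, adjusted p = 0.0585) and -0.95 ± 0.35 (FADS1, adjusted p = 0.0991), and neither passed. FADS2, the delta-6 desaturase that overlaps FADS1 on the other strand, lay at 0.20, SCD5, the second stearoyl-CoA desaturase, at 0.84, and the elongases ELOVL1 and ELOVL5 at 0.93 and -0.43, all with overlap. ELOVL6, the elongase of palmitate, had 8 reads over the 6 libraries (scaled RPM 0, 0.407 and 1.47 in controls and 0, 0.686 and 0 in sh-JMJD1C libraries), so a difference was not detectable at this depth.

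The acyl-CoA synthetases ACSL3 and ACSL4 lay lower, the thioesterase ACOT7 lay higher, and the groups of ACSL1 overlapped. ACOT7, which splits acyl-CoA into free fatty acid and CoA (chromosome 1, 6264269 to 6394391), stood at 4.27, 18.3 and 8.06 scaled RPM in controls 1 to 3 and at 63.0, 160 and 87.8 in sh-JMJD1C libraries 1 to 3. These control values rest on 2, 45 and 33 reads, so that of control 1 is near the floor. The lowest sh-JMJD1C library was above the highest control, the mean went from 10.2 ± 7.26 to 104 ± 50.6 (SD, n = 3), and ACOT7 rose in the read fit by 3.15 ± 0.54 on the log2 scale (adjusted p = 0.0162), the largest change among the members measured there. ACSL3 stood at 211, 106 and 247 in controls and at 67.0, 41.1 and 77.3 in sh-JMJD1C libraries, and ACSL4 at 64.0, 34.2 and 85.8 and at 23.3, 9.60 and 23.2. Both ligases, which activate long-chain fatty acids, stood apart at -1.54 ± 0.43 (ACSL3, adjusted p = 0.0549) and -1.68 ± 0.51 (ACSL4, adjusted p = 0.0647). ACSL1, with 63 reads in all and 0 in control 1, lay at 0.66 ± 0.68 with overlap (adjusted p = 0.519).

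Glycerolipid assembly also held a gene on each side. AGPAT2, which adds the second acyl chain (chromosome 9, 136673143 to 136687423), stood at 27.7, 27.7 and 29.1 in controls 1 to 3 and at 64.1, 181 and 96.9 in sh-JMJD1C libraries 1 to 3. The controls were nearly equal and every sh-JMJD1C library lay above them; AGPAT2 rose in the read fit by 1.87 ± 0.45 on the log2 scale (adjusted p = 0.0387). LPIN1, the phosphatidate phosphatase of the next step, stood at 74.6, 56.1 and 60.4 in controls and at 24.98, 25.4 and 21.1 in sh-JMJD1C libraries, apart at -1.37 ± 0.38 (adjusted p = 0.0535). GPAM, which adds the first chain, and DGAT1, which adds the third, lay at -0.23 and -0.25 with overlap.

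With the trend over transcript length, described below, left in, the medians of the arms did not differ beyond the spread between libraries. In the FPKM fit the median log2 fold change was -0.18 over 20 sterol members and -0.30 over 22 fatty acid members, beside -0.13 over all genes, a difference of -0.11 (fatty acid minus sterol). In the read fit it was -0.16 over 21 and -0.25 over 23, beside -0.08. By library, the fatty acid median minus the sterol median was 0.15, 0.14 and -0.31 in controls 1 to 3 and 0.53, -0.38 and 0.50 in sh-JMJD1C libraries 1 to 3 on the log2 scale, so the groups overlapped. Within the arms the role-group medians of the FPKM fit ran from -1.54 (sterol regulators and transport, 3 genes) to 0.68 (mevalonate steps, 7 genes). Acyl-CoA synthetases and thioesterase had -1.31 over 3 genes, the value of ACSL4, with ACSL3 at -1.51 and ACOT7 at 2.58. ACSL1 was not tested there. With ACSL1 included, this group's median log2 deviation from the control mean overlapped between groups. It was -0.39, 0.15 and 0.53 in controls 1 to 3 and 0.10, -0.06 and -0.01 in sh-JMJD1C libraries 1 to 3.

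Fold changes followed transcript length, in the members as in all genes. Across 11857 genes the read-fit log2 fold change correlated with log10 of the longest annotated transcript at -0.44 (Pearson), and across the 44 members at -0.50 (sterol -0.45, fatty acid -0.65). These are correlations across genes of the same 6 libraries, which are not independent replicates. The median over all genes went from 0.89 for transcripts under 1500 nucleotides to -0.83 for those of 7000 or more. The 7 members apart and higher had a median longest transcript of 2429 nucleotides and the 10 apart and lower one of 4929.

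**Figure D3:**
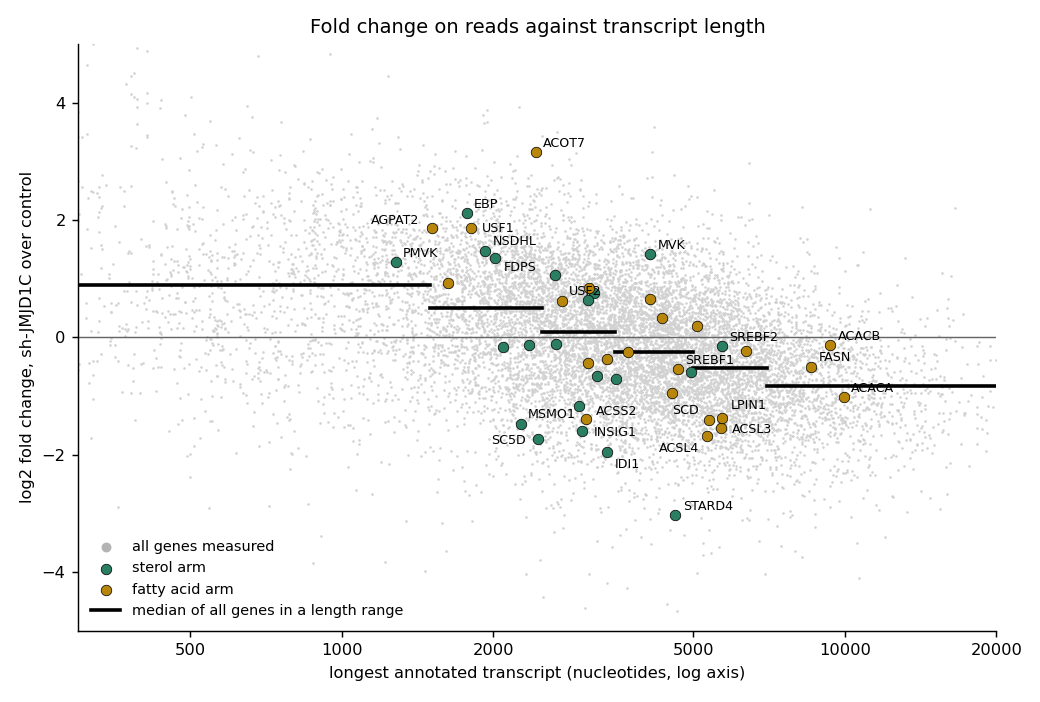
Log2 fold change in the read fit against the longest annotated transcript of each gene (log axis), with grey points for all measured genes within the axes, green points for the sterol arm, ochre points for the fatty acid arm and black bars for the median of all genes in a length range. The bars fall from 0.89 to -0.83, and MSMO1, INSIG1 and STARD4 lie far below the bar at their length while ACOT7 lies far above it.

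With a smooth trend over length removed from each library, 3.42% of genes and 2 of 44 members were called: ACOT7 rose by 2.85 ± 0.49 (adjusted p = 0.0172) and ACSS2 fell by 1.46 ± 0.35 on the log2 scale. ACOT7 was the member called both with and without the trend. EBP went to 1.51 ± 0.38 (adjusted p = 0.0514) and AGPAT2 to 1.15 ± 0.37 (adjusted p = 0.0881), so both calls ended. MSMO1 (-1.85), INSIG1 (-1.68, adjusted p = 0.0514), SQLE (-1.27) and MVK (1.61) were at least as far from 0 as before, and NSDHL went to 0.93 and SCD to -1.002. The medians of the arms changed order, to -0.31 for the sterol arm and 0.25 for the fatty acid arm, a difference of 0.56. The median for the fatty acid arm is then the value of FASN, whose transcript is among the longest. The spread of the difference between libraries (pooled SD) was 0.41 with the trend kept and was not computed with it removed.

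**Figure D4:**
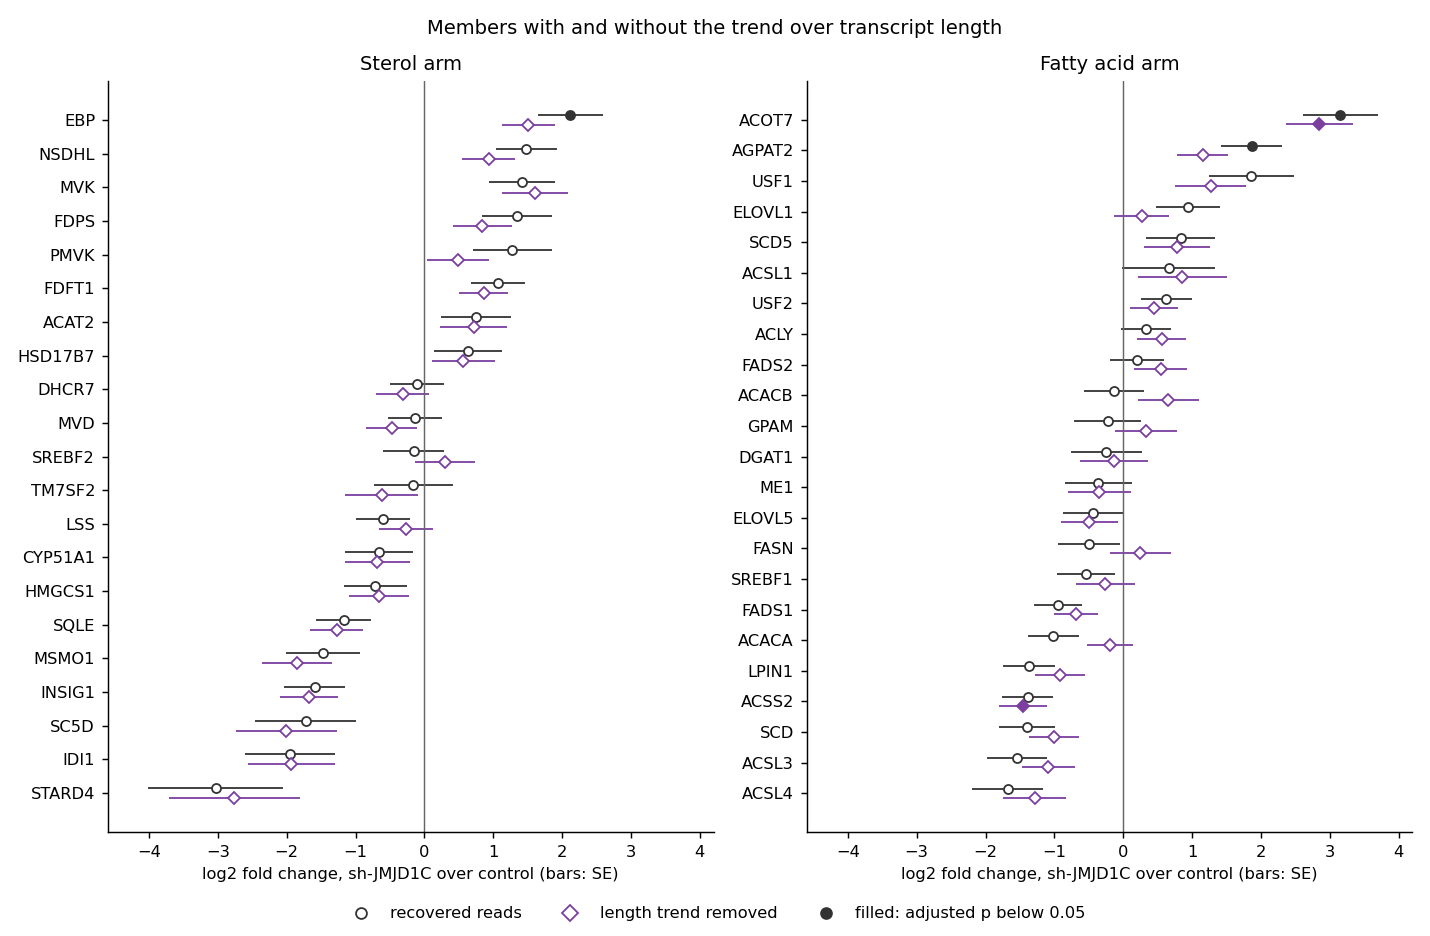
Read-fit log2 fold change and its SE for each measured member, before (black circles) and after (purple diamonds) the trend over transcript length was removed; filled symbols have adjusted p below 0.05. ACOT7 is filled in both versions, EBP and AGPAT2 before only, ACSS2 after only, and the genes with the longest transcripts (ACACA, ACACB and FASN) shift right.

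Single libraries decided most calls. In the read fit, 16 members were called without sh-JMJD1C 1 (20.1% of all genes were), among them FDPS, FDFT1, MVK, PMVK, NSDHL and ACAT2 higher and ACACA, SCD, FADS1, ACSL3, ACSS2 and LPIN1 lower. Without control 2, 8 members were called (10.6% of genes), INSIG1, IDI1, STARD4, ACSL3 and ACSL4 among them. Few genes of any kind were called in the other fits. No member was called without control 1, control 3 or sh-JMJD1C 2, where 39, 34 and 31 genes were called in all. Without sh-JMJD1C 3, 99 genes were called, and ACOT7 was the one member among them. Without both libraries numbered 1, the shallowest control and the sh-JMJD1C library with the least 7SL RNA, 8 were called (8.38% of genes), ACOT7, EBP and AGPAT2 included.

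Other genes of the pathway came from lists chosen with earlier results known. Of 45 measured genes in 5 lists, SLC25A20 rose in the read fit and no other was called, beside 5.52% of all genes. SLC25A20, the carrier that brings acylcarnitines into mitochondria, stood at 6.40, 6.10 and 3.18 scaled RPM in controls 1 to 3 and at 14.8, 48.0 and 28.8 in sh-JMJD1C libraries 1 to 3 (log2 fold change 2.58 ± 0.61, adjusted p = 0.0376). Its groups did not overlap, but its call ended with the length trend removed (adjusted p = 0.0519) and without control 1, control 3, sh-JMJD1C 2 or sh-JMJD1C 3 (0.105, 0.183, 0.142 and 0.0814). The 9 genes of SREBP processing, SCAP and INSIG2 among them, had a median log2 fold change of -0.68 with 0 called, the 10 of sterol handling and LXR -0.25 with 0 called, the 6 of the elongation cycle -0.49 with 0 called, the 9 of glycerolipid and citrate handling 0.34 with 0 called, and the 11 of fatty acid oxidation 0.98 with 1 called. An unadjusted p below 0.05 was found in 13 of the 45 (28.9%) in the read fit, beside 30.8% of all genes.

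Strand bears on 12 members, which overlap a gene on the other strand with at least 60 reads, among them FDPS (RUSC1-AS1, 2100 reads), ACAT2 (TCP1, 1955 reads) and SREBF1 (RAI1, 906 reads) beside MVK and both FADS genes. Their values may hold reads of the partner. EBP, NSDHL, SQLE, MSMO1, INSIG1, ACSS2, SCD, ACOT7, AGPAT2, LPIN1, ACSL3 and ACSL4 are not among them.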

How the data were processed

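RNA of 3 control and 3 sh-JMJD1C libraries of LN-229 cells was sequenced, and the authors deposited FPKM (fragments scaled to length and library total) for 58174 Ensembl genes per library. Per the file headers, columns stand for growing fractions of each library, and the full library was used. The submitters' processing notes name Bowtie 0.12.2 and hg38. For the counting tool, annotation and strand, nothing was stated (not given in the sources used here). The members and lists were chosen with earlier results of these data known.

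FPKM were divided by median-ratio factors (from genes above 0 everywhere and averaging 1 FPKM or more). Genes with a mean scaled FPKM of at least 0.5 were fitted as log2(scaled FPKM + 0.5) on the group with limma 3.58.1 (trend, two-sided, Benjamini-Hochberg at 0.05) in R 4.3.3. Fold changes of low genes are understated on this log2(value + 0.5) scale. Low deposited FPKM step by the value of 1 read, from which whole reads (tolerance 0.05) were recovered. For 93.9% of the 29280 genes above 0, the length used by the authors equals the summed transcripts in GENCODE release 29, and 1797 lengths were found by search. Reads of 11877 genes with at least 60 reads were fitted with limma-voom, also after removing a lowess trend (span 0.3) over the longest transcript. A count of 0 allows 3 reads, which is 1.01 to 5.51 RPM per library, for counting error only. The recovery of reads and the default FPKM and read fits were tested on simulated data. The removal of the length trend and the other alternatives were not.

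Values by library are given for members called in the FPKM or read fit, for those whose groups do not overlap, and for SREBF1, SREBF2, USF1, USF2, INSIG1, HMGCS1, ACACA, FASN, ACLY and SCD. ELOVL6 and some single values of other members were added after the values were seen. The motif window was shortened from 300 to 250 bases, all before the start. Alternatives covered pseudocounts, filters, scaling, gene set, length, the replicate block and left-out libraries.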

Additional observations from a re-analysis of the deposited data

How the results depend on the processing

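Of the 23 members named with values by library, 20 kept the direction of their log2 fold change in every alternative that tested them: 27, or 26 for MVK, ACSL4 and LPIN1, which are not tested at a mean scaled FPKM of at least 2. The exceptions were ACLY, at -0.0505 with FPKM as deposited, -0.44 with quantile normalization and -0.0390 with library totals, FASN, at 0.0188 (FPKM) and 0.25 (reads) with the length trend removed, and SREBF2, at 0.16 and 0.30 with the length trend removed, 0.12 and 0.17 without control 2, and 0.19 and 0.22 without sh-JMJD1C 3. The cause was not tested. Calls depended on the setting far more than directions.

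The FPKM fit called 35 genes, against 83 with pseudocount 0.1, 0 with pseudocount 1, 0 without a filter, 2 at a mean scaled FPKM of at least 2, 79 with FPKM as deposited, 2 with quantile normalization, 916 among protein-coding genes alone (3 sterol members, 4 fatty acid members, 2 other pathway genes; JMJD1C called at -1.82), 0 with the length trend removed and 0 without both libraries numbered 1. On reads it was 656 (1 sterol, 2 fatty acid, 1 other; JMJD1C -2.49), 405 with the length trend removed (0, 2 and 1; JMJD1C -1.75), 1195 with library totals (6, 6 and 3; JMJD1C -2.92) and 948 without both libraries numbered 1 (4, 4 and 3; JMJD1C -2.83). The fatty acid median of -0.30 moved to -0.14 without a filter, -0.43 at a mean of at least 2, -0.53 with FPKM as deposited, -0.48 with quantile normalization, -0.00464 with the length trend removed, 0.25 on reads with it removed (difference from the sterol arm 0.56) and -0.74 with library totals.

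Leaving out each library in turn gave 0 to 695 genes on FPKM and 31 to 2305 on reads, with 1187 without control 2 (JMJD1C -2.81) and 99 without sh-JMJD1C 3. Sterol members called ranged from 0 to 2 on FPKM and 0 to 7 on reads, fatty acid members from 0 to 3 and 0 to 9, and other pathway genes from 0 to 1 and 0 to 11. The sterol median ranged from -0.36 to 0.10 and -0.42 to 0.13, the fatty acid median from -0.34 to -0.0867 and -0.50 to -0.16, their difference from -0.21 to 0.09 and -0.39 to 0.04, and JMJD1C from -2.05 to -1.53 and -2.91 to -1.92.

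With the replicate number as a block, the FPKM fit called 0 genes and the read fit 4260, with 12 sterol, 11 fatty acid and 14 other pathway genes and JMJD1C at -2.48. Deviations of same-numbered libraries correlated at 0.013, 0.142 and 0.228 on FPKM and at 0.023, 0.375 and 0.480 on reads, so the pair numbered 1 gave no sign of pairing, and not every library correlated best with its own number. At the depth of control 1, a gene needs about 5.51 RPM to give 3 reads.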

Other observations

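Genes of fatty acid oxidation, which breaks down what the fatty acid arm builds, lay higher more often than lower. In 6 of 11 measured genes all sh-JMJD1C libraries lay above all controls: CPT1A, SLC25A20, ACADVL, HADHA, HADH and ECI1. One, PPARA, a nuclear receptor that drives this pathway, lay below. Over all measured genes 17.3% stood apart and higher. CPT1A, the gate of mitochondrial import, stood at 147, 184 and 147 scaled RPM in control 1 to 3 and at 336, 258 and 227 in sh-JMJD1C 1 to 3, and HADHA, of the trifunctional protein, at 186, 138 and 142 and at 288, 338 and 281. Of these genes only SLC25A20 passed in the limma-voom fit on reads. With the length trend removed its call ended (adjusted p = 0.0519) and HADH passed (log2 fold change 1.82, adjusted p = 0.0438). The list was looked at after earlier results were known.

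In the sterol handling list, MYLIP, a ubiquitin ligase for lipoprotein receptors, stood at 10.7, 13.0 and 13.2 scaled RPM in controls and at 3.97, 4.80 and 2.81 in sh-JMJD1C libraries. Its groups did not overlap, and it did not pass in the fit on reads (adjusted p = 0.0912) but passed in the FPKM fit of protein-coding genes alone (log2 fold change -1.30, adjusted p = 0.0348).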
